A study of Mus musculus with 4 samples.

Results

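The platelet-derived growth factor (PDGF) family in injured muscle was described here through its 7 genes, the ligands *Pdgfa*, *Pdgfb*, *Pdgfc* and *Pdgfd*, the receptors *Pdgfra* and *Pdgfrb*, and the receptor-like gene *Pdgfrl*. The members were the rows with these symbols among the 32285 genes of the tables, and all 7 had a row. The data were 4 single-cell RNA sequencing (scRNA-seq) libraries of tibial muscle on the 10x platform, in which a barcode names the cell of each transcript and a unique molecular identifier (UMI) counts it once. All libraries came from 6-8 week old *Nse-Bmp4* mice on the C57BL/6 background, in which the neuron specific enolase promoter drives *Bmp4*, a signal that induces cartilage and bone. The control library (Uninjured) carried the same transgene and had no injury, and the other libraries were taken 1, 3 or 7 days after injury (dpi) with cardiotoxin (CTX), a snake toxin that kills muscle fibres. Each library pooled 3 muscles, so there was 1 library per condition, no replicate and no test between conditions. A difference between time points therefore cannot be told apart from a difference between libraries, and the intervals given here cover counting error only.

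PDGF ligands are secreted dimers that bring receptor chains together at the cell surface, so that the kinase domains of the receptors phosphorylate each other and start the RAS and PI3K pathways. The A and C chains bind mainly PDGFRα and the B chain binds both receptors, while the D chain binds mainly PDGFRβ. The C and D chains carry a CUB domain that proteases must remove before they are active. In muscle, PDGFRα is the usual mark of the fibro-adipogenic progenitors, the mesenchymal cells between the fibres, and PDGFRβ is the usual mark of pericytes and smooth muscle cells, which endothelial PDGF-B recruits to vessels. PDGFRL resembles the outer part of a PDGF receptor and has no kinase domain.

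In the annotation of GRCm38 all members were protein-coding genes. *Pdgfra* (chr5:75152292-75198215) and *Pdgfa* (chr5:138976014-138997370) were on the same chromosome, on the plus and the minus strand. *Pdgfb* was at chr15:79995874-80014977 on the minus strand, and *Pdgfc* (chr3:81036416-81214040), *Pdgfd* (chr9:6168584-6378850) and *Pdgfrl* (chr8:40926212-40990785) were, like *Pdgfrb*, on the plus strand. RefSeq promoter sequences were at hand for 4 of the 7 members. The 250 bases before the start of these genes are shown because their levels in mesenchymal cells moved in different directions over the injury, with *Pdgfa* and *Pdgfc* higher and *Pdgfra* and *Pdgfd* lower at 7 dpi. Each runs 5′ to 3′ on the strand of its gene in GRCm38.p6, and capitals mark a TATA box (TATAAA), a GC box (GGGCGG) or a CCAAT box (CCAAT) on either strand. For *Pdgfa*, which had 2 RefSeq starts, both inside the longer gene of the annotation, the upstream one is shown.
Pdgfa, chr5:138994945-138995194, minus strand: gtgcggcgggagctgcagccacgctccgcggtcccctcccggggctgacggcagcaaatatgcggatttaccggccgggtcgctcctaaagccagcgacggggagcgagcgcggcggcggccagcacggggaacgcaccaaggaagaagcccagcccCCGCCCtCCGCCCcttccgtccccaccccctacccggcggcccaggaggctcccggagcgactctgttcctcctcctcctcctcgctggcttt
Pdgfc, chr3:81036166-81036415, plus strand: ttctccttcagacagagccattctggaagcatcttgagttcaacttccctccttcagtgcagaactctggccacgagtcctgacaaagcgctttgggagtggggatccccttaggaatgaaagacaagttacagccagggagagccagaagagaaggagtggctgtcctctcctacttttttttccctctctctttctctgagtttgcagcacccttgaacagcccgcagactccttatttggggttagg
Pdgfd, chr9:6168236-6168485, plus strand: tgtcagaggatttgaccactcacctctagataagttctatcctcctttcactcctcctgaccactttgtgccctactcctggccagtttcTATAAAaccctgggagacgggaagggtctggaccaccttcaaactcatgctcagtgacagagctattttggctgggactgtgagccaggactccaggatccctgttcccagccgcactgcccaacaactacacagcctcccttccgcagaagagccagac
Pdgfra, chr5:75152001-75152250, plus strand: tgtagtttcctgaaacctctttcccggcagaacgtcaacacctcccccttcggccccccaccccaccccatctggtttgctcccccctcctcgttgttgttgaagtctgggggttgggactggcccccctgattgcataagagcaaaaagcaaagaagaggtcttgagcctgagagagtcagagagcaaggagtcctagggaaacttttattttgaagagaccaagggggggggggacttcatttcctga

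The *Pdgfa* window held 2 GC boxes on the opposite strand and had a GC content of 72.4%, against a median of 52.4% over all promoters. The *Pdgfd* window (53.6% GC) held 1 TATA box, and none of the 3 motifs was found in the windows of *Pdgfc* (50.8% GC) and *Pdgfra* (54.4% GC). Among 32851 promoter windows of the same length, 12.4% held a TATA box, 32.7% a GC box and 33.8% a CCAAT box. These matches describe the letters of the windows and say nothing of binding.

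The libraries held 11722 to 23752 cell barcodes and 91146335 to 129007669 UMIs, and the median depth fell from 8629 UMIs per barcode in Uninjured through 5561 and 4214 to 3083 at 7 dpi. Cells were put in classes by lists of 8 marker genes that held no member. After filtering, mesenchymal cells numbered 8390 in Uninjured, 3757 at 1 dpi, 6124 at 3 dpi and 15124 at 7 dpi. The 8 mesenchymal markers, by which cells were chosen, summed to 22771, 17043, 12282 and 5983 CPM in them. The class was thus not alike in its own markers across libraries. At 7 dpi 5541 mesenchymal cells had 4 or more of 8 cartilage markers and are called chondrocyte-like, and no mesenchymal cell of the other libraries did. Mural cells, the pericytes and smooth muscle cells of vessels, numbered 98 in Uninjured, 9 at 1 dpi, 13 at 3 dpi and 200 at 7 dpi, so no mural level is given for 1 and 3 dpi. Endothelial cells were few, with 23, 64, 117 and 68 in the same order. Levels are UMIs of a gene per 1000000 UMIs of the class (CPM) with a 95% Poisson interval, and they compare cells and libraries within a gene, not 1 gene with another.

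*Pdgfra*, which encodes PDGFRα, was a gene of mesenchymal cells in all 4 libraries. Its level in these cells was 344 CPM in Uninjured (339.6 to 348), 497 CPM at 1 dpi (489.7 to 504), 343 CPM at 3 dpi (338 to 348) and 94.7 CPM at 7 dpi (92.7 to 96.8). The level was thus highest at 1 dpi, back at that of Uninjured at 3 dpi and lowest at 7 dpi. At 1 dpi it was 1.45 times that of Uninjured (1.42 to 1.47), and Uninjured exceeded 7 dpi 3.63-fold (3.54 to 3.72). Mesenchymal cells held 99.4%, 97.2%, 96.9% and 95.6% of all *Pdgfra* UMIs in Uninjured, 1, 3 and 7 dpi. B cells, which lack the receptor, gave the background of free RNA, and their level was 6.83, 5.29, 10.6 and 15.9 CPM on 4, 24, 10 and 4 UMIs. Mural cells had 3 UMIs in Uninjured and 4 UMIs at 7 dpi (2.78 CPM), within that background.

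**Figure D1:**
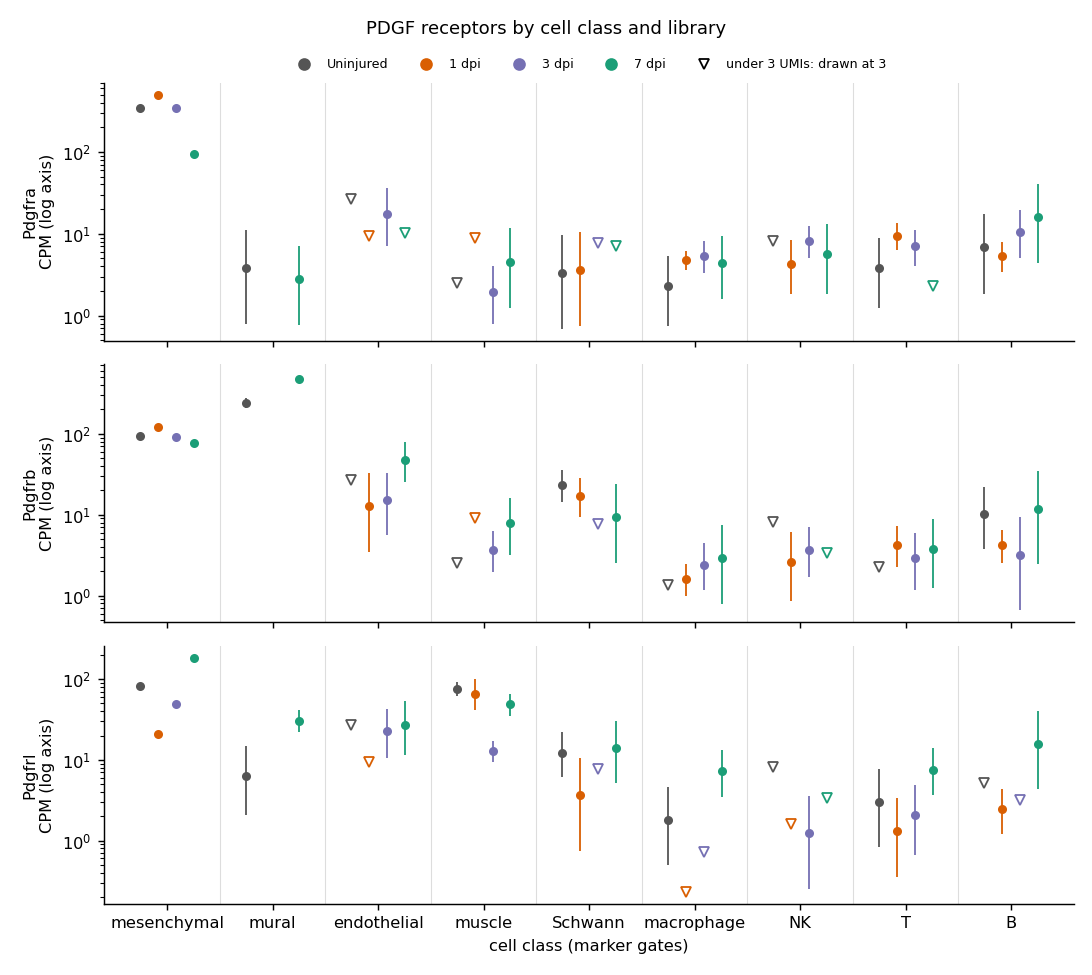
Level of *Pdgfra*, *Pdgfrb* and *Pdgfrl* (CPM, log axis, 1 panel per gene) in 9 cell classes, with 1 point per library and 95% Poisson intervals. Open triangles stand at 3 UMIs for classes with fewer, and mural cells have no point at 1 and 3 dpi. *Pdgfra* stood high in mesenchymal cells alone among these classes, *Pdgfrb* in mesenchymal and mural cells, and *Pdgfrl* in mesenchymal cells and, except at 3 dpi, in muscle cells. At 7 dpi mural and endothelial cells had 30.6 and 26.9 CPM of *Pdgfrl*, on 44 and 8 UMIs.

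Chondrocyte-like cells carried less *Pdgfra* than the remaining 7 dpi mesenchymal cells. They were at 54.3 CPM (51.8 to 56.9), and the 9583 cells with fewer than 4 cartilage markers at 119 CPM (116 to 122). Without the chondrocyte-like cells Uninjured still exceeded 7 dpi 2.88-fold (2.80 to 2.96). Within the 7 dpi library the level went from 139.7 CPM in the 5811 cells with 0 to 1 cartilage markers to 98.6 CPM with 2 to 3, 65.4 CPM with 4 to 5 and 47.8 CPM in the 3551 cells with 6 to 8. The intervals of these groups did not overlap. Their cells had median depths of 2813, 4711, 3456 and 3930 UMIs, and the part of depth, on which the number of markers detected also depends, was not tested. Cartilage RNA was also found outside these cells at 7 dpi. The cartilage markers summed to 346 CPM in B cells, against 6403 CPM in all mesenchymal cells. A few markers in a cell may thus come from free RNA, and its part was not tested. The same limits hold for the other members in these groups.

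Mesenchymal cells other than the chondrocyte-like ones were also divided into groups with at least 3 of 6 markers of a subtype and a lead of 2, chosen after the sizes of looser groups had been seen. Interstitial cells (*Smoc2*, *Col15a1*) had more *Pdgfra* than adventitial cells (*Pi16*, *Dpp4*) in every library, with 432 against 243 CPM in Uninjured, 553 against 374 at 1 dpi, 526 against 289 at 3 dpi and 334 against 148 at 7 dpi. The interstitial level exceeded the adventitial one by 1.48-fold (1.41 to 1.55) at 1 dpi and 2.25-fold (1.98 to 2.57) at 7 dpi, the smallest and the largest of the 4 ratios. Tenocyte-like cells (*Tnmd*, *Thbs4*) had less, with 8.03 CPM in Uninjured (2.19 to 20.6) on 4 UMIs of 53 cells and 43.5 CPM at 7 dpi (30.8 to 59.7). The looser tenocyte group, which may overlap others and at 7 dpi may hold chondrocyte-like cells, was at 218 and 71.8 CPM. Both the level and its direction from Uninjured to 7 dpi thus depended on the gate. Within the interstitial group the 7 dpi level, in 726 cells, was 0.772 times that of Uninjured (0.728 to 0.817). The 1875 cells with osteochondral progenitor genes (*Lrrc15*, *Tnn*) were at 70.3 CPM (65.8 to 75.0).

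*Pdgfrb*, which encodes PDGFRβ, varied less in mesenchymal cells and was higher in mural cells. Mesenchymal cells were at 93.2 CPM in Uninjured (91.1 to 95.4), 122 CPM at 1 dpi (118 to 125), 90.1 CPM at 3 dpi (87.6 to 92.6) and 77.5 CPM at 7 dpi (75.6 to 79.4). At 1 dpi it was 1.30 times that of Uninjured (1.26 to 1.35), and Uninjured exceeded 7 dpi 1.20-fold (1.16 to 1.24). This last difference was small and turned with the gate: in cells chosen by *Prrx1* and *Col1a1* UMIs without *Ptprc*, 7 dpi was higher, at 0.19 on the log2 scale against -0.27 with the marker lists. Mural cells were at 242 CPM in Uninjured (209 to 279) and 480.0 CPM at 7 dpi (445 to 517), a ratio of 1.98 (1.69 to 2.34). Those with pericyte genes were at 322 CPM (256 to 399.8) and 536 CPM (495 to 579), and those with smooth muscle genes at 237 CPM (204 to 273) and 464 CPM (428 to 501). Cells could count in both of these groups, and 7 dpi was higher in each. Mesenchymal cells still held 95.9% of *Pdgfrb* UMIs in Uninjured and 77.3% at 7 dpi, when mural cells held 8.28%. Most of the other 7 dpi UMIs lay in cells with no class or with mixed markers, so the mural share depends on the gate.

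Among mesenchymal cells the interstitial group again had more *Pdgfrb* than the adventitial group, with 138 against 44.3 CPM in Uninjured and 107 against 50.5 CPM at 7 dpi. The gap was 3.10-fold (2.91 to 3.32) in Uninjured and narrowest at 1 dpi, at 1.53-fold (1.39 to 1.68), where adventitial cells reached 95.2 CPM. Schwann cells had 23.4 CPM in Uninjured (14.5 to 35.8) against 10.2 CPM in B cells (3.76 to 22.3), and these intervals overlapped.

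The receptors were counted in the same cells after each cell had been thinned to 1000 UMIs, so that depth was equal. A *Pdgfra* UMI was then seen in 28.5% of mesenchymal cells in Uninjured, 36.2% at 1 dpi, 31.2% at 3 dpi and 9.13% at 7 dpi, and in 0% to 2.56% of B cells. Without thinning the mesenchymal shares were 86.9%, 87.0%, 76.4% and 30.8%, at median depths of 9160, 8185, 5958 and 3530 UMIs, and B cells ranged from 1.53% to 2.68% at 1448 to 2845 UMIs. Thinning left out 0, 9, 153 and 669 mesenchymal cells that were too shallow. In Uninjured *Pdgfrb* was seen in 11.4% of thinned mesenchymal cells with *Pdgfra* (10.2 to 12.8) and 8.66% of those without (7.96 to 9.40), and at 7 dpi in 7.95% (6.55 to 9.55) and in a share between 7.05% and 7.96%. Both receptors were seen together in 3.27%, 4.46%, 2.96% and 0.726% of mesenchymal cells, and at 1, 3 and 7 dpi the intervals for cells with and without *Pdgfra* overlapped. In mural cells of Uninjured *Pdgfrb* was seen in 20.4% (12.9 to 29.7) and *Pdgfra* in 0 of 98 cells. Without thinning 3.06% of these cells had a *Pdgfra* UMI (0.636 to 8.69), so the 0 describes cells at that low depth.

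*Pdgfrl* had the widest swing of the receptor genes in mesenchymal cells. Its level was 82.7 CPM in Uninjured (80.7 to 84.7), 21.0 CPM at 1 dpi (19.5 to 22.6), 48.7 CPM at 3 dpi (46.9 to 50.6) and 181 CPM at 7 dpi (178 to 184). Uninjured exceeded 1 dpi 3.93-fold (3.64 to 4.25), and the level then was 2.31 times higher at 3 dpi than at 1 dpi (2.13 to 2.51) and 3.72 times higher at 7 dpi than at 3 dpi (3.57 to 3.87). The low point thus fell at 1 dpi, the time of the *Pdgfra* peak, and the high point at 7 dpi. Chondrocyte-like cells were at 206 CPM (201 to 211) and 7 dpi mesenchymal cells with fewer than 4 cartilage markers at 166 CPM (162 to 169), a ratio to Uninjured with an interval of 1.94 to 2.07. This ratio was not the same in every subtype. Interstitial cells were at 111 CPM in Uninjured and 114 CPM at 7 dpi, a ratio of 1.03 (0.928 to 1.13). It was 1.81 (1.43 to 2.27) in adventitial cells and 0.618 (0.506 to 0.755) in tenocyte-like cells. In the looser interstitial group it was 1.98 (1.92 to 2.05), so it depended on the gate. Across the cartilage groups of 7 dpi the level was 139, 193, 239 and 187 CPM from 0 to 1 up to 6 to 8 markers, highest in the cells with 4 to 5.

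Tenocyte-like cells had the highest *Pdgfrl* level of the mesenchymal groups in each library, at 389 CPM in Uninjured (337 to 448), 193 CPM at 1 dpi (134 to 269.6), 147 CPM at 3 dpi (112 to 189.9) and 241 CPM at 7 dpi (209 to 275). Interstitial cells exceeded adventitial cells 4.53-fold in Uninjured (4.16 to 4.94) and 15.3-fold at 1 dpi (8.86 to 28.9), when the adventitial level was 2.31 CPM on 13 UMIs. Muscle cells, the satellite cells and their progeny, followed another course, with 75.7 CPM in Uninjured (60.9 to 93.1), 66.0 CPM at 1 dpi (41.4 to 99.9), 13.0 CPM at 3 dpi (9.49 to 17.3) and 48.7 CPM at 7 dpi (35.2 to 65.5). All 90 muscle UMIs of Uninjured lay in cells with satellite cell genes (*Pax7*, *Myf5*), at 82.7 CPM (66.5 to 102). The muscle level was thus lowest at 3 dpi, when the muscle cells were deepest, with a median of 13333 UMIs. B cells were at 1.71, 2.43, 1.06 and 15.9 CPM of *Pdgfrl* in Uninjured, 1, 3 and 7 dpi, on 1, 11, 1 and 4 UMIs. The part of free RNA in the muscle level of 7 dpi was not tested.

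*Pdgfa*, the gene of the A chain, was highest in Schwann, mural and muscle cells. Schwann cells, the glia of peripheral nerves, were at 475 CPM in Uninjured (431 to 522), 484 CPM at 1 dpi (437 to 534), 579.7 CPM at 3 dpi (507 to 660.0) and 293 CPM at 7 dpi (244 to 349.6). Mural cells were at 421 CPM in Uninjured (377 to 468) and 479 CPM at 7 dpi (444 to 516), and these intervals overlapped. Muscle cells ranged from 78.0 CPM at 1 dpi to 119 CPM at 3 dpi, and the intervals of Uninjured, 3 dpi and 7 dpi overlapped. Schwann cells thus stood high in each library, and their 7 dpi level was below that of 3 dpi, which exceeded it 1.98-fold (1.58 to 2.48).

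Mesenchymal cells had little *Pdgfa* before injury and more at 7 dpi. Their level was 8.88 CPM in Uninjured (8.23 to 9.56), 4.65 CPM at 1 dpi (3.97 to 5.42), 21.0 CPM at 3 dpi (19.8 to 22.2) and 65.4 CPM at 7 dpi (63.6 to 67.1). The ratio was 4.50 from 1 to 3 dpi (3.82 to 5.34), 3.12 from 3 to 7 dpi (2.93 to 3.32) and 7.36 for 7 dpi against Uninjured (6.80 to 7.98). Without the chondrocyte-like cells the last ratio was 6.15 (5.66 to 6.69), and chondrocyte-like cells were at 83.0 CPM (79.9 to 86.3). The level was higher with each step in cartilage markers, from 50.9 CPM with 0 to 1 through 58.3 and 67.3 to 92.2 CPM with 6 to 8, the reverse of *Pdgfra*. The parts of depth and of free cartilage RNA in these groups were not tested here either. In the thinned 7 dpi cells *Pdgfa* was seen in 5.98% of cells with *Pdgfra* (4.77 to 7.40) and 6.74% of those without (6.31 to 7.18), intervals that overlapped, while in Uninjured the shares were 0.334% (0.144 to 0.657) and 1.12% (0.867 to 1.42).

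In Uninjured a small mesenchymal group had a high *Pdgfa* level, and its part of the mesenchymal UMIs depended on the gate. The 53 tenocyte-like cells were at 285 CPM (240.1 to 336) and held 142 of the 700 mesenchymal UMIs, while adventitial cells were at 1.88 CPM (1.38 to 2.49) and interstitial cells at 5.44 CPM (4.69 to 6.28). In the looser groups, which may overlap, 2289 cells with *C7* and *Gdf10* genes held 557 of the 700 UMIs, at 22.2 CPM. At 7 dpi the adventitial and interstitial groups were at 14.4 CPM (9.59 to 20.9) and 16.7 CPM (12.8 to 21.3), the osteochondral progenitor group at 60.4 CPM (56.3 to 64.8) and tenocyte-like cells at 194 CPM (165 to 225). The adventitial and interstitial groups, 2610 and 3935 of the 8390 mesenchymal cells in Uninjured, were thus higher at 7 dpi than before injury but below the groups with skeletal genes.

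**Figure D2:**
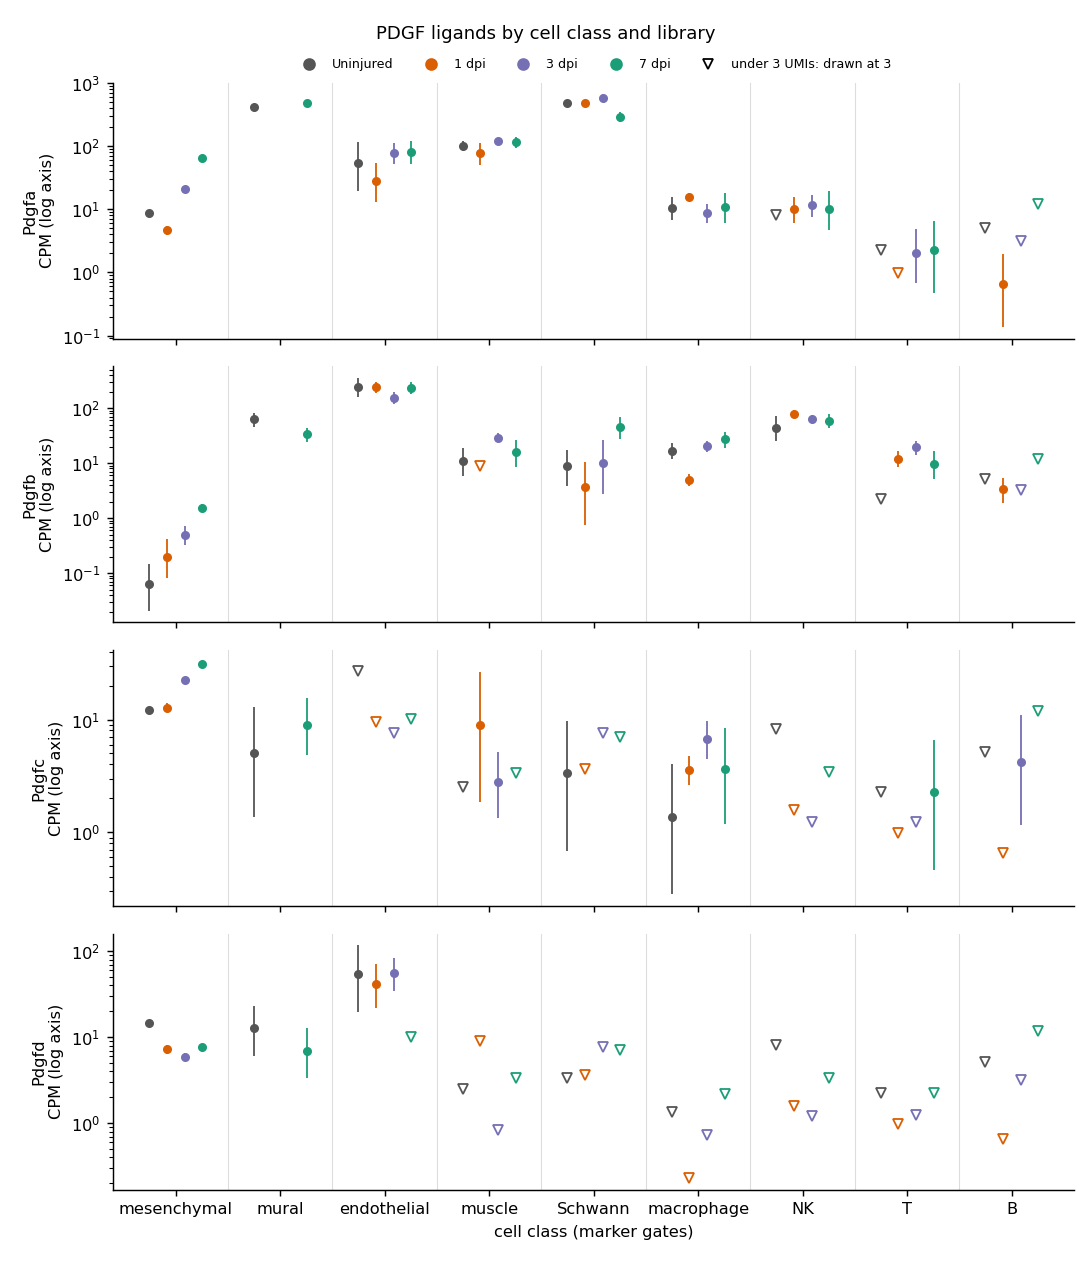
Level of *Pdgfa*, *Pdgfb*, *Pdgfc* and *Pdgfd* (CPM, log axis, 1 panel per gene) in 9 cell classes, with 1 point per library and 95% Poisson intervals. Open triangles stand at 3 UMIs for classes with fewer. *Pdgfa* stood high in Schwann and mural cells, *Pdgfb* in endothelial, NK and mural cells, *Pdgfc* in mesenchymal cells and *Pdgfd* in mesenchymal cells and, up to 3 dpi, endothelial cells. Mural cells were near the mesenchymal level of *Pdgfd*, on few UMIs.

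*Pdgfb* was highest in endothelial cells. Their level was 242 CPM in Uninjured (159 to 352), 241 CPM at 1 dpi (189.5 to 301), 154 CPM at 3 dpi (117 to 197) and 232 CPM at 7 dpi (180.2 to 293), on 27, 76, 61 and 69 UMIs. Between Uninjured and 1 dpi the ratio was 0.995 (0.634 to 1.61), so a change of up to 1.61-fold was within counting error, and the 23 endothelial cells of Uninjured set that limit. This ratio moved with the processing, to 1.55 on the log2 scale after thinning and 0.84 with a gate on *Cdh5* or *Prox1*. Endothelial cells with capillary genes (*Gpihbp1*, *Car4*) were at 345 CPM at 1 dpi (264 to 443) and those with arterial genes at 203 CPM (145 to 277), while at 3 dpi venous cells had 56.4 CPM (28.2 to 101). These groups overlap, so their cells are not separate samples.

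Natural killer (NK) cells were the immune class with the highest *Pdgfb* level in each library. They were at 43.8 CPM in Uninjured (25.1 to 71.2), 78.7 CPM at 1 dpi (66.6 to 92.5), 64.2 CPM at 3 dpi (54.6 to 75.1) and 58.9 CPM at 7 dpi (44.0 to 77.3). The 1 dpi level was 1.80 times that of Uninjured (1.07 to 3.22), on 149 and 16 UMIs, and the later libraries overlapped with each other. B cells, taken as the background, had 0 UMIs in Uninjured (at most 6.30 CPM), 3 dpi (at most 3.91 CPM) and 7 dpi (at most 14.7 CPM) and 15 UMIs at 1 dpi, or 3.31 CPM (1.85 to 5.45). T cells were at 1.51, 12.1, 19.4 and 9.82 CPM, and NK cells were above them in every library. The T cell levels of Uninjured and 7 dpi lay under the B cell limit of their library, so they cannot be told apart from free RNA.

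Macrophages and monocytes had their lowest *Pdgfb* level at 1 dpi, when they were most numerous. The level was 16.9 CPM in Uninjured (11.9 to 23.3), 4.90 CPM at 1 dpi (3.78 to 6.26), 20.3 CPM at 3 dpi (16.2 to 25.2) and 26.9 CPM at 7 dpi (19.0 to 37.1). The 1 dpi interval overlapped that of B cells. Uninjured exceeded 1 dpi 3.44-fold (2.23 to 5.24), and 3 dpi exceeded 1 dpi 4.15-fold (2.96 to 5.83). Cells with C1q genes were at 25.0 CPM in Uninjured, 5.64 at 1 dpi, 13.4 to 23.8 at 3 dpi and 39.5 at 7 dpi. Those with classical monocyte genes (*Ly6c2*, *Ccr2*) were at 13.2, 4.81, 11.0 to 20.1 and 6.52 CPM in the same order, so 1 dpi was the lowest library in both, with intervals that overlapped those of 7 dpi in the monocytes (3.68 to 6.18 and 2.39 to 14.2), where the B cell limit was higher than the monocyte level. The smaller group with nonclassical monocyte genes was not lower at 1 dpi. It had 11.9 CPM in Uninjured and 14.3 CPM at 1 dpi, on 3 and 12 UMIs, a ratio of 1.21 (0.326 to 6.66). Mural cells were at 62.1 CPM in Uninjured (45.9 to 82.1) and 33.3 CPM at 7 dpi (24.6 to 44.2). Muscle cells were highest at 3 dpi, with 29.0 CPM (23.7 to 35.2) against 10.9 CPM in Uninjured (5.82 to 18.7) and 0 UMIs at 1 dpi (at most 11.1 CPM). Schwann cells were at 8.92, 3.64, 10.2 and 44.6 CPM in Uninjured, 1, 3 and 7 dpi, on 8, 3, 4 and 19 UMIs. Their 7 dpi level was 5.00 times that of Uninjured (2.09 to 13.2).

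Mesenchymal cells were at 0.0634, 0.200, 0.487 and 1.53 CPM of *Pdgfb* on 5, 7, 27 and 127 UMIs. Each lay under the B cell level or limit of its library, so these UMIs cannot be told apart from free RNA. That holds too for the 24.8% of all *Pdgfb* UMIs (21.1 to 28.8) that lay in mesenchymal cells at 7 dpi, when these held 84.2% of the UMIs of all genes. The order of 3 and 7 dpi turned with the gate on *Prrx1* and *Col1a1*, to -0.19 on the log2 scale.

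**Figure D3:**
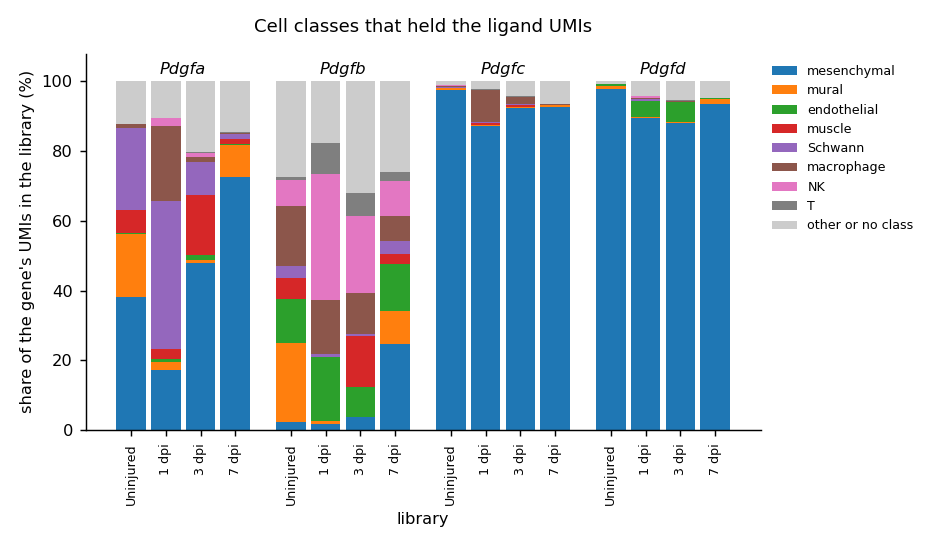
Share of each ligand's UMIs (%, stacked bars from 0) that lay in each cell class, with 1 bar per library. Mesenchymal cells held 87.1% or more of *Pdgfc* and 88.0% or more of *Pdgfd* UMIs in every library, *Pdgfa* was shared with Schwann, mural, muscle and macrophage cells, and no class held over 36.1% of *Pdgfb*.

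The *Pdgfa* and *Pdgfb* UMIs had different holders at each time point. Schwann cells, at 1.96% of cells, held 42.5% of *Pdgfa* UMIs at 1 dpi (39.3 to 45.8), and macrophages, at 17.1% of cells, held 21.6%. Mesenchymal cells held 17.4% at 1 dpi and 72.5% at 7 dpi, when they were 39.0% and 74.5% of cells. Muscle cells held 17.4% at 3 dpi (15.9 to 18.9) and 1.36% at 7 dpi. NK cells, at 3.70% of cells, held 36.1% of *Pdgfb* UMIs at 1 dpi (31.4 to 40.9) and 22.1% at 3 dpi, while endothelial cells held 12.5%, 18.4%, 8.58% and 13.5% in Uninjured, 1, 3 and 7 dpi. These shares follow the cells recovered in each library as well as the level per cell.

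*Pdgfc* UMIs lay mostly in mesenchymal cells, with 97.6%, 87.1%, 92.5% and 92.7% in Uninjured, 1, 3 and 7 dpi. Mesenchymal cells were at 12.2 CPM in Uninjured (11.5 to 13.0), 12.7 CPM at 1 dpi (on 446 UMIs), 22.6 CPM at 3 dpi (21.4 to 23.9) and 31.3 CPM at 7 dpi (30.1 to 32.5). Between Uninjured and 1 dpi the ratio was 1.04 (0.928 to 1.17), within counting error, and 7 dpi exceeded Uninjured 2.56-fold (2.37 to 2.76). Without the chondrocyte-like cells the last ratio was 2.64 (2.44 to 2.86), and chondrocyte-like cells were at 29.6 CPM (27.8 to 31.6). Endothelial cells had 0 UMIs in each library, which allowed up to 33.0, 11.7, 9.28 and 12.4 CPM in Uninjured, 1, 3 and 7 dpi, so in Uninjured a level as high as the mesenchymal one was not detectable at this depth. Macrophages had 47 UMIs at 1 dpi, or 3.60 CPM (2.65 to 4.79).

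*Pdgfc* had the largest ratio between the adventitial and interstitial groups of any member in each library. Adventitial cells were at 27.9, 33.8, 45.1 and 44.3 CPM in Uninjured, 1, 3 and 7 dpi, and interstitial cells at 1.24, 0.846, 1.57 and 4.68 CPM. The interstitial levels rested on 43, 12, 14 and 18 UMIs. B cells were at 4.24 CPM at 3 dpi and 3.98 CPM at 7 dpi, on 4 and 1 UMIs, and had 0 UMIs at 1 dpi. At 3 and 7 dpi the interstitial levels thus cannot be told apart from free RNA. The size of the ratios depends on these low levels, and the part of free RNA was not tested. The adventitial level was 22.4 times higher in Uninjured (16.4 to 31.2), 40.0 times at 1 dpi (22.4 to 78.8), 28.7 times at 3 dpi (16.6 to 53.7) and 9.46 times at 7 dpi (5.65 to 16.7). The direction was thus opposite to that of *Pdgfra* and *Pdgfrb*, which were higher in interstitial cells. Osteochondral progenitor cells of 7 dpi were at 44.1 CPM (40.6 to 47.9), and the 3551 cells with 6 to 8 cartilage markers had the lowest level of the cartilage groups, at 24.4 CPM (22.3 to 26.7).

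*Pdgfd* was lower in mesenchymal cells after injury. The level was 14.7 CPM in Uninjured (13.9 to 15.6), 7.25 CPM at 1 dpi (6.39 to 8.20), 5.93 CPM at 3 dpi (5.31 to 6.61) and 7.61 CPM at 7 dpi (7.03 to 8.22). Uninjured exceeded 1 dpi 2.03-fold (1.77 to 2.33) and 7 dpi 1.93-fold (1.75 to 2.13). The smaller differences among the injured libraries turned when cells were thinned, to 0.09 on the log2 scale for 3 against 1 dpi and -0.18 for 7 against 3 dpi. The thinned values rest on fewer UMIs and have no interval of their own. Adventitial cells exceeded interstitial cells 6.86-fold in Uninjured (5.75 to 8.25) and 3.11-fold at 7 dpi (1.75 to 5.66), with 29.4 against 4.29 CPM and 17.0 against 5.46 CPM. Within the adventitial group 7 dpi was 0.578 times Uninjured (0.395 to 0.820). Interstitial cells were lower at 1 dpi, at 0.526 times Uninjured (0.347 to 0.776). At 7 dpi they were not, at 1.28 times (0.767 to 2.02). Within 7 dpi the level was lower with each step in cartilage markers, at 9.80, 8.57, 6.85 and 3.93 CPM, and intervals of neighbouring groups overlapped except for the last (3.11 to 4.90).

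Endothelial cells were at 53.7 CPM of *Pdgfd* in Uninjured (19.7 to 117), 41.2 CPM at 1 dpi (21.9 to 70.4), 55.4 CPM at 3 dpi (34.7 to 83.8) and 3.36 CPM at 7 dpi (0.0850 to 18.7), on 6, 13, 22 and 1 UMIs. The level of 7 dpi was thus below that of 3 dpi by a ratio of 0.0606 (0.00147 to 0.375), on 1 UMI. Endothelial cells with arterial genes (*Gja4*, *Gja5*), which had 79.8 CPM at 3 dpi (47.3 to 126), numbered 61 at 3 dpi and 16 at 7 dpi. Those with capillary genes were at 58.0 CPM at 3 dpi, on 7 UMIs of 38 cells, and 4.25 CPM at 7 dpi, on 1 UMI of 52 cells, a ratio of 0.0733 (0.00163 to 0.570). Muscle cells had 0 *Pdgfd* UMIs in each library, which at 3 dpi allowed up to 1.04 CPM. Mural cells were at 12.7 CPM in Uninjured and 6.95 CPM at 7 dpi, on 10 UMIs in each. These levels were near those of mesenchymal cells, and the part of free RNA in them was not tested.

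**Figure D4:**
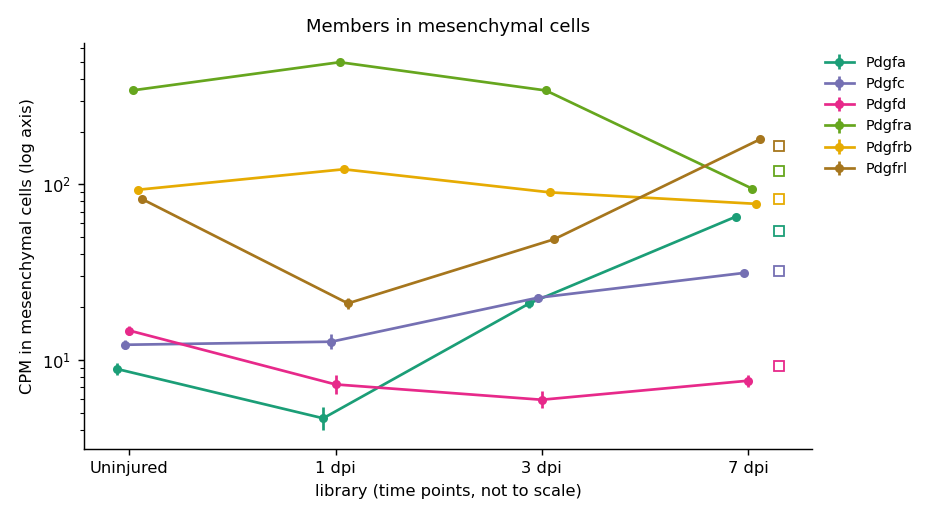
Level of 6 members in mesenchymal cells (CPM, log axis) in the 4 libraries, with 95% Poisson intervals. Lines join 1 library per time point and are not replicated, open squares give 7 dpi without chondrocyte-like cells, and the axis serves to compare libraries within a gene. *Pdgfra* went from 343 to 94.7 CPM between 3 and 7 dpi, while *Pdgfa* went from 21.0 to 65.4 CPM and *Pdgfrl* from 48.7 to 181 CPM.

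Across all genes of mesenchymal cells with at least 30 UMIs in a pair of libraries, 9.10% were at least 2-fold higher and 4.98% at least 2-fold lower at 1 dpi than in Uninjured. Of the 6 members tested there (*Pdgfb* had too few UMIs) none was 2-fold higher and 2, *Pdgfrl* and *Pdgfd*, were 2-fold lower, with *Pdgfd* just past the limit and *Pdgfa* just short of it at 1.91-fold. From 1 to 3 dpi 6.56% of genes were 2-fold higher and 5.92% lower, and of the 7 members 3 were higher (*Pdgfa*, *Pdgfb* and *Pdgfrl*) and none lower. From 3 to 7 dpi 13.2% were higher and 8.26% lower, and 3 members were higher (the same genes) and 1, *Pdgfra*, lower. In both of these steps *Pdgfb* was counted at levels that cannot be told apart from free RNA, and from 3 to 7 dpi its direction turned with another gate. The median log2 ratio of all genes was 0.16, -0.08 and -0.06 for the 3 steps, and scaling by the median of gene ratios added -0.18, 0.08 and 0.11 to them.

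**Figure D5:**
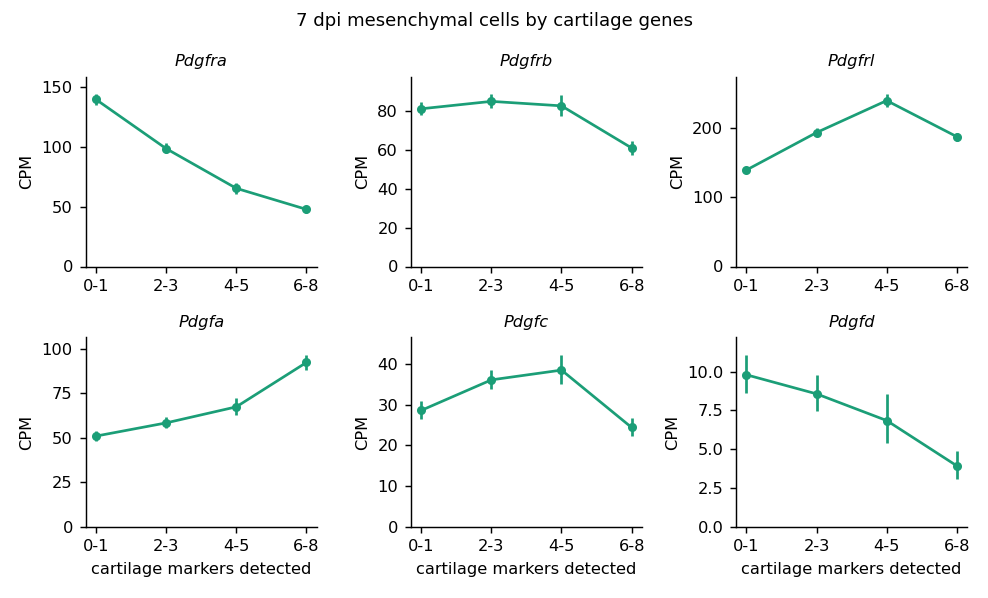
Level of 6 members (CPM, axes from 0) in 7 dpi mesenchymal cells grouped by how many of 8 cartilage markers they had, with 95% Poisson intervals. *Pdgfra* went from 139.7 to 47.8 CPM and *Pdgfd* from 9.80 to 3.93 CPM with more markers, while *Pdgfa* went from 50.9 to 92.2 CPM. The number of markers detected also depends on depth and may include free cartilage RNA, and the part of each was not tested.

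The remaining genes of the pathway were followed through a list of 48 genes, of which 47 could be tested in mesenchymal cells. At 1 dpi 3 were at least 2-fold higher than in Uninjured and 2 lower, from 1 to 3 dpi 1 was higher and 2 lower, and from 3 to 7 dpi 1 was higher and 8 lower. Over all genes tested 9.10% were higher and 4.98% lower in the first of these steps, 6.56% and 5.92% in the second, and 13.2% and 8.26% in the last. The median log2 ratio of the list was 0.22, -0.20 and -0.48, against 0.16, -0.08 and -0.06 over all genes. The genes that act on ligands included the higher *Thbs1* at 1 dpi (225 against 91.8 CPM), which encodes the matrix protein thrombospondin 1, and the lower *Sparc* (4705 against 13674 CPM), whose product binds PDGF. *Plau*, a protease gene whose product can activate PDGF-D, was at 89.0 CPM at 3 dpi and 14.7 CPM at 7 dpi, and *A2m* was at 1.83, 0.306 and 1.14 CPM at 1, 3 and 7 dpi, on 64, 17 and 95 UMIs.

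None of the 15 genes for adaptors and kinases was 2-fold apart from Uninjured to 1 dpi or from 1 to 3 dpi, and *Pik3r1*, a PI3K subunit, was the sole one from 3 to 7 dpi, at 116 and 53.9 CPM. Of the 11 genes that limit receptor signals 4 were at least 2-fold lower at 7 dpi than at 3 dpi, where 8.26% of all genes were, namely *Cblb*, a ubiquitin ligase (52.6 and 23.3 CPM), the phosphatase gene *Ptprj* (18.5 and 7.99 CPM), *Socs3* (584 and 279 CPM) and *Spry1* (57.7 and 26.2 CPM). *Spry2* was lower earlier, at 164 CPM at 1 dpi and 76.7 CPM at 3 dpi. Among the 12 growth factor response genes *Srf* was at 7.71 CPM in Uninjured and 15.5 CPM at 1 dpi, and *Fosl1* was at 0.888 CPM in Uninjured, 7.71 CPM at 1 dpi, 14.7 CPM at 3 dpi and 6.50 CPM at 7 dpi. *Myc* was at 149 CPM at 3 dpi and 62.7 CPM at 7 dpi, *Fos* at 8118 CPM in Uninjured and 3756 CPM at 1 dpi, and *Ier3* at 204 CPM at 1 dpi and 505 CPM at 3 dpi. Many of these genes respond to stimuli other than PDGF.

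The genes whose levels ran most like those of each member were found by Pearson's r over 41 pairs of cell class and library, among 8419 genes that reached 50 CPM in a pair. *Pdgfra* ran with *Osr1* (r = 0.97), *Gdf10* (0.97) and *Podn* (0.96), and *Pdgfrb* with *Ndufa4l2* (0.93), a marker used to choose mural cells, *Aoc3* (0.92) and *Pi15* (0.92). *Pdgfrl* ran with *Colec12* (0.92), *Mdk* (0.91) and *Fkbp7* (0.90). Of the ligands, *Pdgfa* ran with *Mtss2* (0.93), *Pdgfb* with *Nrarp* (0.82), *Pdgfc* with *Scarf2* (0.86) and *Pdgfd* with *Smad6* (0.91). The pairs share libraries and free RNA, and the values for *Pdgfb* were the lowest.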

How the data were processed

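The deposited UMI counts of 4 libraries, 1 per condition, were used. Per the labels the authors made the counts with Cell Ranger 5.0.0 (STAR alignment), and the submitters' processing notes name mm10 and Seurat 3.1.1. The labels mention down-sampling of reads, and whether it touched these counts is not given in the sources used here. Libraries shared 30 to 95 barcodes per pair.

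Cells within 2 SD of the library mean in log10 UMIs and log10 genes and with at most 10% mitochondrial UMIs were kept, and the 7.5% with the highest Scrublet doublet scores were removed (scanpy 1.11.5), which left 10307, 9641, 12604 and 20301 cells. A cell joined the class with the most of its 8 markers detected, given at least 3 and a lead of 2. The mesenchymal class was scored by its mesenchymal or its cartilage list, whichever had more markers detected. Cells with 3 cartilage markers and few mesenchymal ones could therefore count as mesenchymal without being called chondrocyte-like. Between 2.02% and 13.5% of kept cells had no class, and 2.26% to 6.18% were mixed. Of the marker symbols 2 had no row and were left out. Counts were summed per class and library for classes of at least 20 cells. The 95% intervals are exact Poisson for CPM, conditional binomial for ratios and Clopper-Pearson for shares. A count under 3 UMIs was treated as a floor. Correlations used log2(CPM + 10) in classes of at least 50 cells. The calculation of the ratios was run on simulated Poisson sums for mesenchymal cells of 1 dpi and Uninjured, with 14630 genes, 200 of them changed 4-fold. There 95.3% of intervals covered the true ratio, and 99.0% of changed and 0.506% of unchanged genes passed 2-fold. The simulation had counting error alone, with no spread between cells or libraries and no free RNA. It therefore checks the arithmetic and cannot show how the intervals or calls hold in these data. Promoters came from RefSeq (GRCm38.p6) and gene positions from GENCODE M21. Named genes were the members, the pathway genes past 2-fold and up to 3 genes most like each member. The members and lists were chosen with earlier results of these data known. Python 3.11.15, numpy 2.4.6, pandas 2.3.3, scipy 1.17.1 and matplotlib 3.10.9 were used.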

Additional observations from a re-analysis of the deposited data

Results flagged for a closer look

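For 12 comparisons a member was higher in 1 cell class and lower in another, with counting intervals on either side of 0. The values are log2 ratios on at least 10 UMIs summed over both libraries, and some rest on fewer in 1 of them. Each comes from 1 library per time point, and the difference between classes was not tested. With a gate on *Prrx1* and *Col1a1* the mesenchymal direction turned for *Pdgfrb* in both of its comparisons below and for *Pdgfb* from 3 to 7 dpi. When cells were thinned it turned for *Pdgfd* from 3 to 7 dpi. *Pdgfa* from 1 to 3 dpi was 2.17 in mesenchymal cells and -0.84 in macrophages, and from 3 to 7 dpi 1.64 in mesenchymal cells and -0.98 in Schwann cells. For 7 dpi against Uninjured it was 2.88 in mesenchymal cells and -0.70 in Schwann cells.

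*Pdgfb* at 1 dpi against Uninjured was 3.00 in T cells, on 2 UMIs in Uninjured, and -1.78 in macrophages. From 1 to 3 dpi it was 2.05 in macrophages and -0.65 in endothelial cells. From 3 to 7 dpi it was 1.65 in mesenchymal cells and -0.98 in T cells, and for 7 dpi against Uninjured 4.59 in mesenchymal cells, on 5 UMIs in Uninjured, and -0.90 in mural cells. The mesenchymal levels of *Pdgfb* lay under the B cell level or limit in each library. Schwann cells were also higher from 3 to 7 dpi, at 2.13 on 4 and 19 UMIs. *Pdgfd* from 3 to 7 dpi was 0.36 in mesenchymal cells and -4.04 in endothelial cells, the latter on 1 UMI at 7 dpi.

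*Pdgfrb* from 3 to 7 dpi was 1.64 in endothelial cells, on 6 and 14 UMIs, and -0.22 in mesenchymal cells. For 7 dpi against Uninjured it was 0.99 in mural cells and -0.27 in mesenchymal cells. *Pdgfrl* from 1 to 3 dpi was 1.21 in mesenchymal cells and -2.35 in muscle cells. For 7 dpi against Uninjured *Pdgfrl* was 1.13 in mesenchymal cells and -0.64 in muscle cells. Muscle cells with satellite cell genes held all muscle *Pdgfrl* UMIs of these libraries, 90 in Uninjured and 43 at 7 dpi. In them the plain ratio of 7 dpi to Uninjured was 0.735 (0.498 to 1.07), within counting error. The lower muscle level at 7 dpi thus held for the whole class and was not resolved in the satellite group.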

How the results depend on the processing

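Each member's ratios in mesenchymal cells, with *Pdgfb* in endothelial and NK cells, gave 29 results and 273 alternatives, of which 178 stayed within the counting interval, 90 moved further and 5 reversed; among the results not listed here 68 of 195 alternatives moved. Values are log2 ratios. For 7 dpi against Uninjured the reported values were 2.88 for *Pdgfa*, 1.35 for *Pdgfc*, -0.95 for *Pdgfd*, -1.86 for *Pdgfra*, -0.27 for *Pdgfrb* and 1.13 for *Pdgfrl*. With gates after the cell types of the study (*Prrx1* and *Col1a1* without *Ptprc*) these were 2.62, 0.98, -1.16, -1.81, 0.19 and 1.25, so *Pdgfrb* reversed. It also reversed from 3 to 7 dpi (0.20), as did *Pdgfb* (-0.19), and *Pdgfb* in endothelial cells from Uninjured to 1 dpi moved from -0.01 to 0.84. With cells thinned, *Pdgfc* was 1.65, *Pdgfrb* -0.37, *Pdgfrl* 1.08 and endothelial *Pdgfb* 1.55, and *Pdgfd* reversed from 1 to 3 dpi (0.09) and from 3 to 7 dpi (-0.18). The mean of single cells gave 3.06 for *Pdgfa*, 1.54 for *Pdgfc*, -0.32 for *Pdgfrb* and 1.00 for *Pdgfrl*. Without filters on cells *Pdgfa* was 2.32 and *Pdgfc* 1.13, and with a limit of 2 SD on linear counts *Pdgfra* was -1.78. Without the cells with 4 or more cartilage markers, an alternative chosen after seeing the data, *Pdgfa* was 2.62, *Pdgfd* -0.68, *Pdgfra* -1.53, *Pdgfrb* -0.17 and *Pdgfrl* 1.00. The alternatives have no interval of their own, thinned values rest on fewer UMIs, and the cause of these shifts was not tested. Genes past 2-fold numbered 843 higher and 467 lower at 1 dpi with at least 100 UMIs, against 1331 and 728. With no filter on low counts they numbered 3696 and 2974 at 1 dpi, 3387 and 2481 from 1 to 3 dpi and 5099 and 2895 from 3 to 7 dpi. No paired analysis was possible because each condition had 1 library. Depth set limits where no UMI was seen, of up to 14.7 CPM for *Pdgfb* in B cells at 7 dpi and 33.0 CPM for *Pdgfc* in endothelial cells of Uninjured.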
